A study of Homo sapiens with 8 samples.

Results

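The genes described here are 45 of the 58051 genes in the count tables. They belong to homologous recombination, the Fanconi anaemia pathway and mismatch repair, together with the damage kinases that act upstream of them and DNA polymerase theta, and they were chosen by symbol. All 45 were found and all 45 passed the filter on low counts. Total RNA depleted of ribosomal RNA was sequenced from A375, a human melanoma cell line, in 4 wild-type lines (WT1 to WT4) that were each derived by single-cell cloning. Each line was cultured for 12 h in DMEM with 10% fetal bovine serum (serum) or with 0% serum (serum-free), which gave 4 libraries per condition and 8 in all. The series was made to find the transcriptional response to serum withdrawal. Each line is a clone with 1 library per condition, so that p-values measure the spread between clones of a single parental cell line.

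Homologous recombination copies lost sequence from the sister chromatid. Broken ends are first resected to single-stranded DNA, mediator proteins prepare it to pair with the sister, helicases and nucleases then resolve the joined molecules, and the Fanconi pathway prepares crosslinked DNA for the same process. Mismatch repair removes copying errors behind the replication fork. A sister chromatid exists only after replication, and many of these genes are transcribed most in the S and G2 phases of dividing cells. In bulk RNA, fewer cells in a phase and less RNA per cell cannot be told apart.

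Between 29759279 and 67101005 reads were counted on genes per serum library and between 37847737 and 73341551 per serum-free library. The share of alignments set aside as not unique was 22.7% in the serum library of WT1 and 16.8% in that of WT2, against 5.73% to 10.1% in the other libraries. Of 9 melanoma markers, *ERBB3* (331 and 496 CPM with and without serum), *MITF* (40.1 and 33.1 CPM) and *S100B* (18.9 and 23.2 CPM) were abundant. *PMEL*, *MLANA* and *DCT* lay at or under 1.23 CPM, *SOX9* and *TYR* at or under 0.311 CPM, and *SOX10* was listed at 0 counts in both conditions. The summed level of the melanoma list was 331 to 459.7 CPM in the serum libraries and 435 to 657 CPM in the serum-free libraries. The 5 leukocyte and endothelial markers summed to 0.607 to 1.80 CPM with serum and 0.994 to 1.43 CPM without, the 5 fibroblast markers to 5.46 to 9.56 and 5.91 to 8.63 CPM, and the 5 epithelial markers, nearly all *KRT14*, to 15.1 to 21.8 and 11.8 to 21.1 CPM. Of the 6 melanoma markers with enough counts *MITF* was called lower and *ERBB3* higher (edgeR's adjusted p = 0.0496 and 0.0441), with *DCT* lower and *S100B* higher only in a fit with the line as a replicate block (adjusted p = 0.0251 and 0.0469) and neither called once a GC correction was added, which took *MITF* to -0.16. Of the other 3 lists 0 tested genes passed in either direction without the block. With the block the fibroblast marker *DCN* was called higher (log2 fold change 0.90, edgeR's adjusted p = 0.0125), and with a GC correction added *DCN* was at 1.09 (adjusted p = 0.00312) and *KRT14* was called lower at -0.39 (adjusted p = 0.00166).

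Most of the 45 genes were lower without serum. Of the 45 genes, 28 (62.2%) were called lower by the quasi-likelihood test of edgeR (p adjusted by the Benjamini-Hochberg method over 17671 tested genes, threshold 0.05), as were 14.0% of all tested genes. None of the 45 was called higher, against 11.1% of all tested genes. At an unadjusted p under 0.05, 1 gene, *RMI2*, was higher, and DESeq2 and limma's voom called 0 genes higher. The other 17 genes did not pass the test. Among them were 1 of the 2 mismatch repair genes, 3 of the 4 nucleases and 3 of the 4 damage kinases. The median log2 fold change was -0.37 over the 45 genes and 0.03 over all tested genes.

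The falls were modest and shared between lines. The largest left *RAD51AP1* at 54.3% of its serum level, 0 genes fell by 2-fold or more, and 39 of the 45 changed by less than 1.5-fold. In 34 genes the serum-free library was the lower of the pair in all 4 lines, as in 43 of the 89 other repair genes tested. For these counts by line and by 1.5-fold change, the share over all tested genes was not computed. The median log2 difference of the 45 genes within a line was -0.41, -0.28, -0.39 and -0.34 for WT1 to WT4, respectively. In 25 of the 45 genes every serum-free library lay below every serum library, which held for 15.0% of all tested genes. The summed level of the 45 genes was 2891, 2668, 2691 and 2419 CPM in the serum libraries of WT1 to WT4 and 2245, 2147, 2071 and 1950 CPM in their serum-free libraries, so that the groups did not overlap.

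When the line entered the fit as a replicate block, 33 of the 45 genes were called lower and 1 was called higher, against 22.4% and 23.2% of all tested genes. The 28 genes remained called, and *EME1*, *FANCL*, *FANCD2*, *ATR* and *CHEK2* were added as lower and *RMI2* as higher. DESeq2, which had no block, also called 33 genes lower, these 5 among them, and voom called 30. The count without the block varied with the library or line left out. It was 30 without the serum library of WT4 and 29 without both libraries of WT4, against 17.9% and 17.4% of all tested genes. It was 18 without the serum library of WT1, against 9.29%. Without both libraries of WT1, WT2 and WT3 it was 15, 14 and 12, against 5.35%, 6.73% and 6.47%, so that calls over all genes were fewer in the same fits. In the blocked fit it was 31 or 32 with any line left out, against 17.0%, 18.8%, 17.8% and 25.1% without WT1 to WT4. A library or a whole line was left out in 12 fits, and the 10 genes called lower in each of them were *RAD51AP1*, *XRCC3*, *RAD54L*, *BLM*, *RBBP8*, *FANCC*, *FANCM*, *UBE2T*, *FANCI* and *POLQ*.

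**Figure D1:**
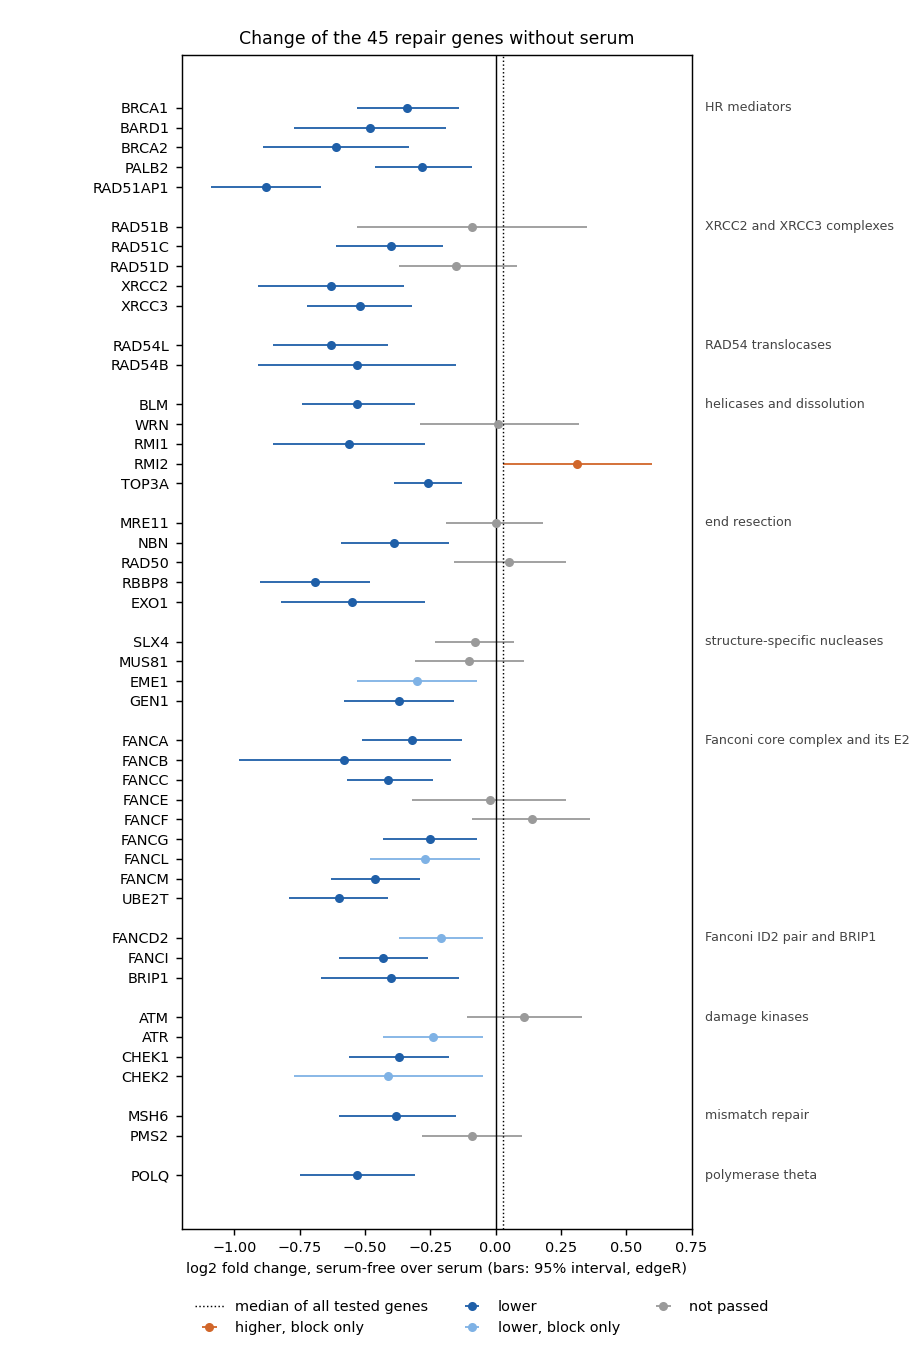
Log2 fold change of each of the 45 genes, serum-free over serum, with the 95% interval of edgeR's fit without a block (n = 4 libraries per condition), arranged by function. Dark blue marks the 28 genes called lower in this fit. Light blue marks the 5 called lower in edgeR's fit with the replicate block but not in this one. Orange marks *RMI2*, called higher with the block but not in this fit, and grey the rest. The dotted line is the median of all tested genes, 0.03.

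**Figure D2:**
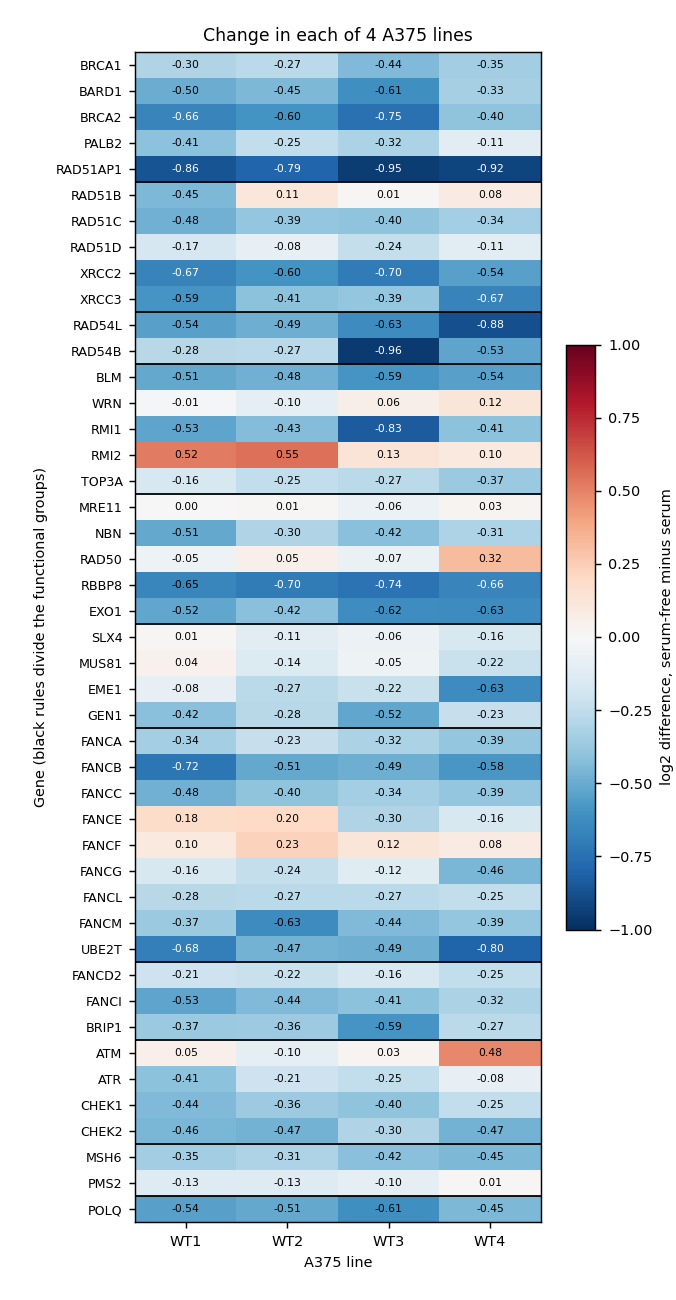
Log2 difference of each gene in each of the 4 A375 lines, serum-free minus serum, from log2 CPM with a prior count of 2; each cell compares 1 library with 1 library. *RAD51AP1* lies between -0.79 and -0.95 in every line, whereas *FANCE* is above 0 in WT1 and WT2 and below 0 in WT3 and WT4.

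Promoter sequences are shown for the 4 called genes with the smallest p and for the 2 genes with the largest p among those whose promoter could be shown, so that genes that fell and genes that did not can be read side by side. Each is the 150 bases before the most upstream of the RefSeq starts with a window here, on GRCh38.p14, 5′ to 3′ in the direction of the gene. Capitals mark CCAAT or its complement ATTGG, the box bound by NF-Y.

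RAD51AP1 (chr12:4538740-4538889, plus strand): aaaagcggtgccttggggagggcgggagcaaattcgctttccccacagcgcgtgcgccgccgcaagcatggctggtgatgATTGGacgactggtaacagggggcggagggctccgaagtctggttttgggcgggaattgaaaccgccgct
RBBP8 (chr18:22933178-22933327, plus strand): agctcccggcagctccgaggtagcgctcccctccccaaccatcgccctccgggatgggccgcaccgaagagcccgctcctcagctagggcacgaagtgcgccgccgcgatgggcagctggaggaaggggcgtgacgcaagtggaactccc
UBE2T (chr1:202341937-202342086, minus strand): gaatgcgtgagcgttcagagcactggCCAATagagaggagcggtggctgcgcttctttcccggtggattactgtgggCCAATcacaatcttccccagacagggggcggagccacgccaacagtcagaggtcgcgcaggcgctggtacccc
RAD54L (chr1:46247538-46247687, plus strand): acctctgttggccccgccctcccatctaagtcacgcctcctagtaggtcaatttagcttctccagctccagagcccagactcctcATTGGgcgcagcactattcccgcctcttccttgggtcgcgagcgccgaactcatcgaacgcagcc
MRE11 (chr11:94493845-94493994, minus strand): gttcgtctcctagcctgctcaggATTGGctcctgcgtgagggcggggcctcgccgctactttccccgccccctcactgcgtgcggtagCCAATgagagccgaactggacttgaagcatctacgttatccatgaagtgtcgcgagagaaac
FANCE (chr6:35452188-35452337, plus strand): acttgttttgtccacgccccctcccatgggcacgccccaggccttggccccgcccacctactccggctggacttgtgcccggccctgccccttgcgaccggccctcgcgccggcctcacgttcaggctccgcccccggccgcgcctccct

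The CCAAT letters stood in 3 of the 4 shown genes that fell, and also in *MRE11*, which did not pass the test. A RefSeq window of 300 bases (250 before the start and 50 after) was matched by symbol for 40 of the 45 genes. The windows of *NBN*, *RAD54B*, *WRN*, *FANCI* and *RMI2* were not analysed here. CCAAT was found on either strand in 20 of the 40 genes (50.0%), against 39.7% of all 27305 genes with a window and 43.0% of the 11942 tested genes with a window.

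Letters of the kind bound by E2F factors, which drive S-phase genes, were searched as TTTGGCGC, TTTCGCGC, TTTCCCGC and TTTGCCGC on both strands. They were found in 9 of the 40 genes (22.5%), against 3.99% of all genes and 6.41% of tested genes. These were *XRCC2*, *RMI1*, *EXO1*, *GEN1*, *FANCA*, *FANCC* and *MSH6*, which fell, and *FANCD2* and *PMS2*, which did not pass the test without the block. Of 25 called genes with a window 7 held them, as did 2 of 15 other genes. The letters that lay wholly before the start are shown in capitals with 20 bases on each side, or up to the start.

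RMI1 (chr9:83980753-83980800, plus strand): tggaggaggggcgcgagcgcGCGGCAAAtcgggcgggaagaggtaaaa
FANCA (chr16:89816792-89816839, minus strand): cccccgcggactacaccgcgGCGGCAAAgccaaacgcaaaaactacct
FANCC (chr9:95317854-95317901, minus strand): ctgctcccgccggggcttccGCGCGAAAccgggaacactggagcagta
FANCC (chr9:95317728-95317775, minus strand): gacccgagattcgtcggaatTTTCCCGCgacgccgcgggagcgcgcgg
PMS2 (chr7:6009122-6009169, minus strand): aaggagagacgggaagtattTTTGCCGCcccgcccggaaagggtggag

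The cell cycle homology region, written as TTTGAA or TTCGAA and known from G2 and M phase promoters, was found in 6 of the 40 genes (15.0%), against 19.5% of all genes and 15.9% of tested genes. It stood in *GEN1*, *FANCC*, *UBE2T*, *BRIP1*, *POLQ* and *ATM*. Of 25 called genes 5 held it, and of 15 other genes 1. No listed word contains a word of another set, although neighbouring matches can share bases. A match is a description of the letters and not a bound site.

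The 5 recombination mediators were lower in all 4 lines. BRCA1 and BARD1 form the ubiquitin ligase that acts early at a break, PALB2 bridges BRCA1 to BRCA2, BRCA2 acts on the resected DNA, and RAD51AP1 stimulates strand invasion. All 5 of these genes fell. With a library or line left out, *RAD51AP1* was called in 12 of 12 fits, *BRCA2* in 11, *BRCA1* in 7, *BARD1* in 4 and *PALB2* in 2. *RAD51AP1* (ENSG00000111247, chromosome 12, 4538890 to 4560047) was at 50.2, 44.9, 46.1 and 41.4 CPM in the serum libraries of WT1 to WT4 and at 27.6, 25.9, 23.9 and 21.8 CPM in the serum-free libraries. The conditions were separated by a gap wider than either group. Its log2 fold change was -0.88 ± 0.09 (SE, n = 4 per condition), with edgeR's adjusted p = 0.000914.

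*BRCA2* was at 99.8, 76.6, 83.5 and 67.3 CPM with serum and 63.2, 50.4, 49.5 and 51.1 CPM without, so that the serum-free library of WT1 came close to the serum library of WT4. It fell by 0.61 on the log2 scale (edgeR's adjusted p = 0.00776). Libraries of *BRCA1* (chromosome 17, 43044295 to 43170327) spanned 124 to 147 CPM with serum and 95.6 to 119 CPM without, and it fell by 0.34 on the log2 scale (edgeR's adjusted p = 0.0204). Its partner *BARD1* had a mean of 28.4 ± 4.36 CPM in serum and 20.4 ± 2.52 CPM in serum-free medium (SD, n = 4) and fell by 0.48 (adjusted p = 0.0242). The smallest fall was that of *PALB2*, at 41.5, 38.4, 38.1 and 32.5 CPM with serum and 31.1, 32.3, 30.6 and 30.2 CPM without. Its serum library of WT4 and serum-free library of WT2 were nearly level, and the log2 fold change was -0.28 ± 0.08 (SE; edgeR's adjusted p = 0.0346).

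XRCC2 and XRCC3 work in assemblies that promote strand exchange. RAD51B, RAD51C, RAD51D and XRCC2 form the larger complex, and RAD51C pairs with XRCC3 in the smaller. Of the 5 genes 3 fell. *XRCC3* was at 22.8, 20.3, 20.3 and 25.1 CPM with serum and at 15.2, 15.3, 15.4 and 15.7 CPM without, which put all serum-free libraries within a narrow band under the serum libraries. Its log2 fold change was -0.52 ± 0.09 (SE; edgeR's adjusted p = 0.00418). In the annotation used for lengths 76.7% of its exon bases overlapped a gene on the other strand, and the library kit does not mark strand, so its counts are uncertain.

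*XRCC2* fell by 0.63 on the log2 scale (55.0 ± 8.41 to 35.5 ± 4.27 CPM; edgeR's adjusted p = 0.00648) and *RAD51C* by 0.40 (36.9 ± 3.46 to 27.9 ± 2.24 CPM; adjusted p = 0.0116). *RAD51D*, in the same complex, was at 20.2 ± 1.51 and 18.2 ± 1.87 CPM and did not pass the test (log2 fold change -0.15, 95% interval -0.37 to 0.08). *RAD51B* had few reads, at 3.76, 2.39, 2.76 and 2.25 CPM with serum and 2.75, 2.58, 2.77 and 2.38 CPM without. Apart from the serum library of WT1 its values were mixed between conditions (log2 fold change -0.09, 95% interval -0.53 to 0.35; edgeR's adjusted p = 0.77). Whether these subunits changed unequally was not tested.

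RAD54L and RAD54B are motor proteins that help the resected end invade the matching duplex, and both genes fell. *RAD54L* (chromosome 1, 46247688 to 46278473) was at 34.5, 28.8, 31.3 and 32.7 CPM with serum and 23.7, 20.5, 20.3 and 17.8 CPM without. The widest difference was in WT4, and no libraries overlapped (log2 fold change -0.63 ± 0.10 SE, edgeR's adjusted p = 0.00288). *RAD54B* was low, at 4.90, 5.03, 7.12 and 4.82 CPM with serum and 4.03, 4.16, 3.64 and 3.34 CPM without. WT3 stood out with a log2 difference of -0.96, against -0.27 to -0.53 in the other lines. Its adjusted p was 0.0465 in edgeR's test, 0.125 without the serum library of WT3 and 0.0717 with block and GC correction. With a library or line left out, *RAD54B* was called in 1 of 12 fits. In the length annotation 66.0% of its exon bases overlapped another gene on the same strand, whose reads can be counted for neither.

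Of the 5 genes of helicases and the dissolution complex 3 fell. BLM, topoisomerase III alpha (TOP3A), RMI1 and RMI2 together unlink double Holliday junctions, and WRN is a related helicase. *BLM* was at 55.6, 51.2, 51.6 and 44.3 CPM with serum and 39.1, 36.8, 34.3 and 30.6 CPM without. Every serum-free library lay under every serum library, and the differences in the lines were alike, between -0.48 and -0.59 (log2 fold change -0.53 ± 0.10 SE, edgeR's adjusted p = 0.00491). *RMI1* fell by 0.56 on the log2 scale (46.4 ± 7.56 to 31.5 ± 3.65 CPM; adjusted p = 0.0126) and *TOP3A* by 0.26 (134 ± 3.47 to 112 ± 4.36 CPM; adjusted p = 0.0103).

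*RMI2* (chromosome 16, 11345459 to 11351760) was at 17.1, 15.3, 22.9 and 19.8 CPM with serum and 24.4, 22.4, 25.2 and 21.3 CPM without. In each of the 4 lines it was higher without serum, by 0.52 and 0.55 in WT1 and WT2 but by 0.13 and 0.10 in WT3 and WT4, and the conditions overlapped. Its log2 fold change of 0.31 ± 0.13 (SE) did not pass without the block (edgeR's adjusted p = 0.10) and passed with it (0.33, edgeR's adjusted p = 0.00797). It was called higher in the blocked fits without WT3 or WT4 but not in those without WT1 or WT2. *WRN* was at 16.9, 17.3, 19.6 and 13.5 CPM with serum and 16.7, 16.2, 20.5 and 14.6 CPM without. Its libraries were ordered by line rather than by condition (log2 fold change 0.01, 95% interval -0.29 to 0.32), with a value of -0.02 in voom.

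Of the 5 end resection genes 3 fell, among them 1 subunit of the MRE11 complex. MRE11, RAD50 and NBN form the sensor that binds and first nicks broken ends, RBBP8 (CtIP) activates its nuclease, and EXO1 carries resection further. *RBBP8* (chromosome 18, 22914139 to 23026486) was at 79.6, 78.6, 74.5 and 64.3 CPM with serum and 50.7, 48.5, 44.5 and 40.7 CPM without. The groups were far apart, and the log2 fold change was -0.69 ± 0.09 (SE; edgeR's adjusted p = 0.00177). *EXO1* fell by 0.55 on the log2 scale, from 112 ± 13.0 to 76.5 ± 11.9 CPM (adjusted p = 0.0117).

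*NBN* was at 204, 184, 184 and 155 CPM with serum and 143, 149, 137 and 125 CPM without. It fell by 0.39 on the log2 scale (edgeR's adjusted p = 0.0137), with no overlap between conditions, and by 0.16 in the fit with the replicate block and a correction for GC content (edgeR's adjusted p = 0.00531). *MRE11* (chromosome 11, 94415570 to 94512412) was at 48.2, 45.1, 48.0 and 39.9 CPM with serum and 48.3, 45.5, 46.1 and 40.8 CPM without. The libraries of a line were almost equal, and the 95% interval of the log2 fold change was -0.19 to 0.18, and in the corrected fit it was called higher at 0.17. *RAD50* was at 73.8, 71.6, 71.9 and 54.7 CPM with serum and 71.3, 74.2, 68.3 and 68.3 CPM without (log2 fold change 0.05, 95% interval -0.16 to 0.27). Only the serum library of WT4 stood apart. In the length annotation 76.9% of the exon bases of *RAD50* overlapped another gene on the same strand. The signs of *MRE11* and *RAD50* were not stable: with upper-quartile scaling *MRE11* was at 0.06, and without the serum library of WT4 *RAD50* was at -0.04. The difference between *NBN* and its partners was not itself tested.

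**Figure D3:**
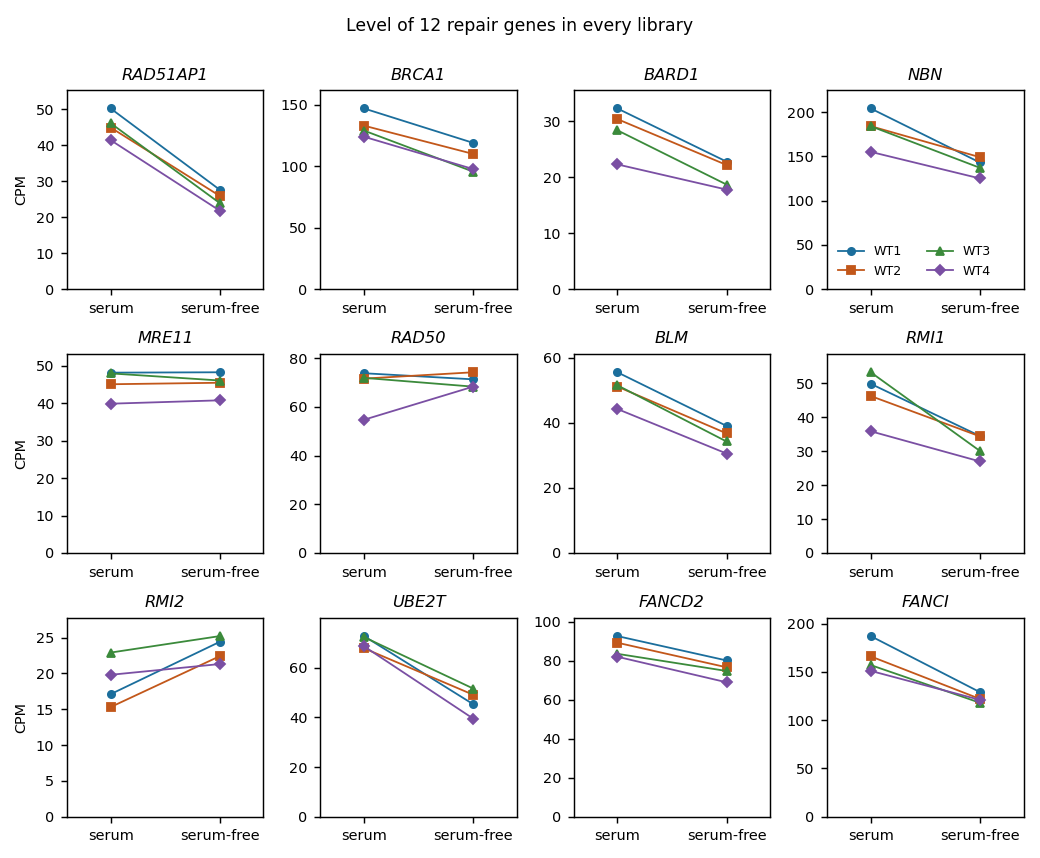
CPM of 12 genes in each library (y axis from 0), with a line joining the serum and serum-free libraries of WT1 to WT4. *NBN* slopes down in every line, whereas its partners *MRE11* and *RAD50* lie level apart from WT4 in *RAD50*; *BLM* and *RMI1* slope down, and their partner *RMI2* slopes up.

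Structure-specific nucleases cut the junctions that dissolution leaves. SLX4 is a scaffold, MUS81 and EME1 form a nuclease, and GEN1 acts alone. *GEN1* was at 65.4, 62.2, 66.4 and 51.0 CPM with serum and 48.7, 51.3, 46.3 and 43.5 CPM without, with the serum library of WT4 just under the serum-free library of WT2. It fell by 0.37 on the log2 scale (edgeR's adjusted p = 0.019). *MUS81* was at 46.7, 46.8, 46.0 and 58.5 CPM with serum and 47.9, 42.6, 44.3 and 50.3 CPM without. WT4 was the highest library in both conditions, and the groups overlapped (log2 fold change -0.10, 95% interval -0.31 to 0.11). *EME1* went from 16.3 ± 1.05 to 13.2 ± 1.31 CPM with no overlap (log2 fold change -0.30). In edgeR it passed with the block (adjusted p = 0.0189) but not without it (0.0573). DESeq2 and voom called it without a block (adjusted p = 0.0273 and 0.0493). *SLX4*, at 50.3 ± 3.56 and 47.5 ± 1.12 CPM, did not pass the test (log2 fold change -0.08, 95% interval -0.23 to 0.07).

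In the Fanconi pathway a core complex, with FANCL as its ubiquitin ligase and UBE2T as the conjugating enzyme, marks the FANCD2 and FANCI pair at a crosslink. FANCM carries the complex to the DNA. Of these 9 core and UBE2T genes 6 fell. *UBE2T* (chromosome 1, 202331657 to 202341936) was at 72.7, 67.8, 72.3 and 68.6 CPM with serum and 45.3, 49.1, 51.6 and 39.5 CPM without. The serum libraries were tight and far above the others (log2 fold change -0.60 ± 0.09 SE, edgeR's adjusted p = 0.00204). *FANCM* fell by 0.46 on the log2 scale (32.3 ± 1.94 to 23.5 ± 1.32 CPM; adjusted p = 0.00355), *FANCC* by 0.41 (35.0 ± 2.21 to 26.4 ± 1.28 CPM; adjusted p = 0.00498) and *FANCA* by 0.32 (53.6 ± 4.65 to 42.9 ± 3.46 CPM; adjusted p = 0.0232).

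Near the threshold were *FANCB*, which fell by 0.58 on the log2 scale (35.6 ± 6.66 to 23.9 ± 4.96 CPM; edgeR's adjusted p = 0.0429), and *FANCG*, which fell by 0.25 (56.2 ± 5.31 to 47.2 ± 2.57 CPM; adjusted p = 0.0465). *FANCG* was not called by voom (adjusted p = 0.0515), with upper-quartile scaling or under any of the 3 other filters. With a library or line left out, *FANCG* was called in 1 of 12 fits and *FANCB* in 3. *FANCL*, the ligase, was lower by 0.25 to 0.28 in each line (25.7 ± 2.28 and 21.4 ± 1.73 CPM; edgeR's adjusted p = 0.0637 without the block and 0.00545 with it). The call was lost when a GC correction was added to the block (log2 fold change -0.00, edgeR's adjusted p = 1). *FANCE* was at 13.0, 10.4, 14.7 and 12.7 CPM with serum and 14.7, 11.9, 12.0 and 11.4 CPM without. It was above its serum level in WT1 and WT2 and below in the other lines (log2 fold change -0.02, 95% interval -0.32 to 0.27, and 0.04 with upper-quartile scaling). *FANCF*, at 12.1 ± 0.812 and 13.2 ± 1.14 CPM, was higher in all 4 lines and did not pass the test (log2 fold change 0.14, 95% interval -0.09 to 0.36).

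FANCI and FANCD2 are the substrates of that ligase. *FANCI* (chromosome 15, 89243979 to 89317259) was at 187, 166, 157 and 151 CPM with serum and 129, 122, 118 and 121 CPM without. All serum libraries were above all serum-free libraries, and the log2 fold change was -0.43 ± 0.08 (SE; edgeR's adjusted p = 0.0043). *FANCD2* was at 92.7, 89.3, 83.6 and 82.1 CPM with serum and 80.2, 76.7, 74.8 and 69.0 CPM without. The groups lay close together but did not overlap, and the log2 fold change of -0.21 ± 0.07 (SE) passed with the block (edgeR's adjusted p = 0.00548) but not without it (0.0534). *BRIP1*, the helicase that binds BRCA1, fell by 0.40 on the log2 scale (45.3 ± 6.04 to 34.2 ± 4.11 CPM, edgeR's adjusted p = 0.0316). With a library or line left out it was called in 4 of 12 fits. Whether *FANCI* fell more than *FANCD2* was not tested.

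ATM signals from broken ends through CHEK2, and ATR signals from single-stranded DNA through CHEK1. *CHEK1* was at 93.6, 91.1, 83.4 and 74.1 CPM with serum and 69.0, 71.0, 63.0 and 62.2 CPM without. No libraries overlapped, and it fell by 0.37 on the log2 scale (edgeR's adjusted p = 0.0136). *ATM* was at 91.3, 87.7, 92.3 and 70.4 CPM with serum and 94.6, 81.9, 94.5 and 98.2 CPM without. The serum library of WT4 was the only low library (log2 fold change 0.11, 95% interval -0.11 to 0.33).

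*ATR*, at 99.0 ± 11.1 and 83.7 ± 3.26 CPM, was lower in all 4 lines by 0.08 to 0.41. Its log2 fold change of -0.24 passed edgeR's test with the block (adjusted p = 0.00576) but not without it (0.0625). Without a block DESeq2 called it (adjusted p = 0.034) and voom did not (0.0635). With a library or line left out it was called in 2 of 12 fits. With block and GC correction the log2 fold change was -0.09 (edgeR's adjusted p = 0.093). *CHEK2* was at 14.9 ± 2.23 and 11.2 ± 2.36 CPM. Lines differed as much as conditions did. The log2 fold change of -0.41 passed edgeR's test with the block (adjusted p = 0.000959) but not without it (0.0881). Without a block DESeq2 just called *CHEK2* (adjusted p = 0.0496) and voom did not (0.0625). With a library or line left out it was called in 1 of 12 fits.

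Mismatch repair was represented by *MSH6*, part of the dimer that finds mismatches, and *PMS2*, part of the dimer that nicks the new strand. In the length annotation 24.2% of the exon bases of *MSH6* overlapped a gene on the other strand. Such overlap was 19.9% for *RAD54L*, 19.6% for *FANCA*, 16.4% for *EME1*, 14.1% for *MUS81* and 13.4% for *CHEK1*. *MSH6* was at 261, 225, 238 and 208 CPM with serum and 205, 182, 178 and 152 CPM without. It fell by 0.38 on the log2 scale with no overlap (edgeR's adjusted p = 0.0222). *PMS2* was at 30.8, 30.8, 34.1 and 27.4 CPM with serum and 28.0, 28.1, 31.8 and 27.6 CPM without. The conditions overlapped (log2 fold change -0.09, 95% interval -0.28 to 0.10). *PMS2* has near-identical pseudogene copies that can split or remove its reads, so its level is uncertain. *POLQ*, which encodes the polymerase of an alternative end joining that takes over where recombination fails, was at 69.1, 64.1, 58.5 and 54.0 CPM with serum and 47.4, 45.2, 38.2 and 39.6 CPM without. It fell by 0.53 on the log2 scale with no overlap (edgeR's adjusted p = 0.00536).

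Per kilobase of exon, levels in serum ran from 0.373 RPKM for *RAD51B* to 36.5 RPKM for *UBE2T*, with a median of 5.18 RPKM. *UBE2T* was followed by *EXO1* (27.0 RPKM), *RAD51AP1* (17.9 RPKM), *TOP3A* (16.3 RPKM), *CHEK1* (15.3 RPKM) and *RBBP8* (14.6 RPKM). All 6 of these fell. In serum 32 of the 45 genes lay above 2.74 RPKM, the median of expressed genes. At the low end were *RAD51B*, *FANCL* (0.677 RPKM), *RAD54B* (1.03 RPKM) and *FANCM* (1.70 RPKM), of which *RAD54B* and *FANCM* fell. This order depends on the length used. By the canonical transcript *UBE2T* was still highest (80.2 RPKM), followed by *MSH6* (54.6 RPKM) and *NBN* (39.4 RPKM), while *FANCL*, whose merged exons span 37977 bases against 1658 in the canonical transcript, was at 15.5 RPKM, and *RAD54B* (1.78 RPKM) and *RAD51B* (1.79 RPKM) were lowest.

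Of other repair genes, 25 of 89 tested (28.1%) were called lower and 4 higher, against 14.0% and 11.1% of all tested genes. The other repair genes had a median log2 fold change of -0.14. The difference from the 45 genes was not tested. Among other genes of recombination and crosslink repair, 8 of 32 were lower and 1 was higher. *RFWD3*, a ligase of the Fanconi pathway, fell by 0.43 on the log2 scale (edgeR's adjusted p = 0.00235), and *MCM8*, a helicase of recombination, fell by 0.56 (adjusted p = 0.00357). Of 6 other mismatch repair genes 1 (16.7%), *HMGB1*, fell (log2 fold change -0.32, edgeR's adjusted p = 0.0201). With block and GC correction *HMGB1* was at -0.14 (edgeR's adjusted p = 0.0244).

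Of 14 checkpoint adaptors 6 fell and 0 rose. *CLSPN*, which links ATR to CHEK1, fell by 0.68 on the log2 scale (edgeR's adjusted p = 0.00231), and *TOPBP1*, which activates ATR, fell by 0.45 (adjusted p = 0.00337). In non-homologous end joining, which ligates ends without a template, 8 of 15 tested genes fell and 1 rose, among them *XRCC5* (log2 fold change -0.40) and *LIG4* (-0.68). Of all tested genes 14.0% were called lower and 11.1% higher. Base and nucleotide excision repair, which serve damage outside replication too, had 2 genes lower (8.7%) and 2 higher of 23. Its *NEIL3*, a glycosylase of dividing cells, fell by 0.59 on the log2 scale (adjusted p = 0.00373), and *NEIL1* rose by 0.76 (adjusted p = 0.00715).

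Markers of dividing cells were also lower without serum, where 14.0% of all tested genes were called lower. Of 10 S-phase markers 9 fell (median log2 fold change -0.44), among them the replicative helicase genes *MCM6* (-0.72, edgeR's adjusted p = 0.00167) and *MCM4* (-0.50, adjusted p = 0.00213). Of 10 G2 and M phase markers 8 fell (median log2 fold change -0.38), among them *CCNA2* (-0.62, adjusted p = 0.000992) and *CDK1* (-0.81, adjusted p = 0.000996). The S-phase list summed to 2287 to 2512 CPM in the serum libraries and 1640 to 1979 CPM in the serum-free libraries, and the G2 and M list to 2867 to 3371 and 2305 to 2733 CPM. Within lines the median difference was largest in WT4 for the S-phase list (-0.61) and the G2 and M list (-0.52). For the 45 genes it was largest in WT1 (-0.41). The part of these markers in the change of the repair genes was not tested.

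**Figure D4:**
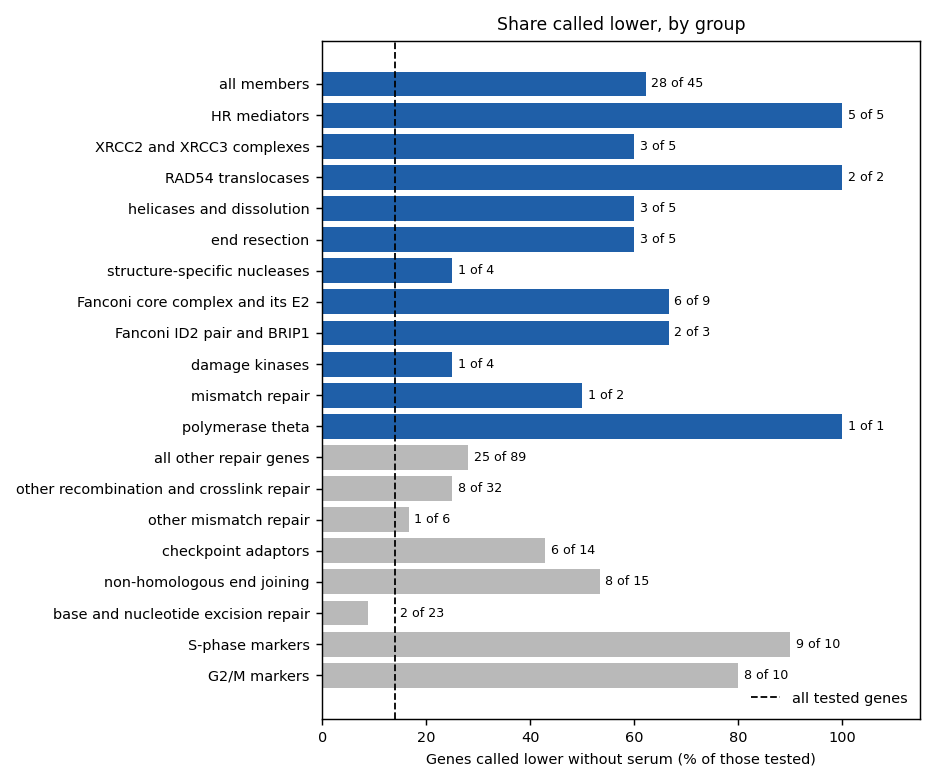
Share of tested genes called lower without serum (x axis, percent) in the 45 genes, in each of their functional groups (blue) and in other repair and cell cycle lists (grey), with counts beside the bars. The dashed line is the share of all tested genes, 14.0%. In this fit without a block the recombination mediators and RAD54 genes stand at 5 of 5 and 2 of 2, the nucleases and kinases at 1 of 4. With the block the nucleases and kinases were at 2 and 3 of 4. With block and GC correction they were at 4 and 2 of 4, and the RAD54 genes at 1 of 2.

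The change of a gene moved with its GC content. Over 17425 tested genes the log2 fold change and the GC content of the longest transcript had a Spearman rho of 0.36, and over the 45 genes of 0.35; these are across genes of the same libraries, which are not independent replicates. Median GC content was 40.6% in the 28 genes that fell, 44.0% in the other 17 and 47.9% in all tested genes. Below 45% GC, 22 of the 31 genes were called lower, against 22.4% of all tested genes in that range, and at or above it 6 of the 14, against 8.91%.

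With a GC correction added to the replicate block, 32 of the 45 genes were called lower and 4 higher, against 24.5% and 21.7% of all tested genes, and the median log2 fold change was -0.28. *RAD51AP1* stayed lowest among genes under 45% GC at -0.67, and *XRCC3*, the most GC-rich of the 45 at 63.8%, went to -0.79. *SLX4* and *MUS81* were called lower in that fit alone, at -0.25 and -0.26. *MRE11* and *RAD50* were called higher, both at 0.17, and so were *ATM* at 0.26 and *RMI2* at 0.30. *FANCL*, the gene with the lowest GC content (33.1%), lost its call, as did *RAD54B* and *ATR*. Of the 28 genes called without block or correction, 12 moved by over 1.5 times, 11 of them toward 0: *BARD1* (-0.29), *BRCA2* (-0.40), *PALB2* (-0.18), *RAD54B* (-0.32), *RMI1* (-0.34), *NBN* (-0.16), *GEN1* (-0.22), *FANCB* (-0.37), *FANCM* (-0.28), *BRIP1* (-0.22) and *MSH6* (-0.25).

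**Figure D5:**
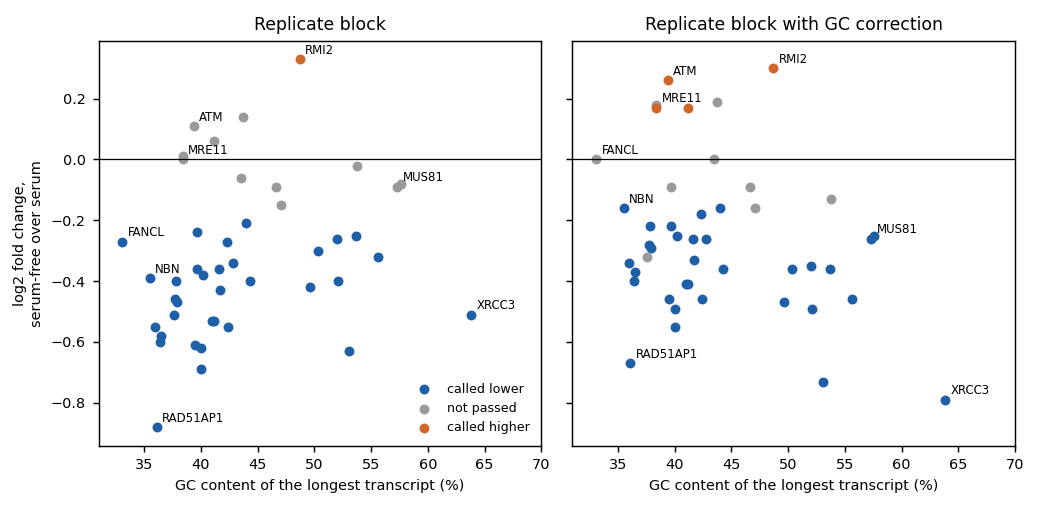
Log2 fold change of the 45 genes, serum-free over serum, against the GC content of the longest transcript (percent), from the fit with the replicate block (left) and with a GC correction added (right). Blue points are called lower, orange higher and grey neither; *FANCL* at 33.1% GC moves up to the zero line on the right, and *XRCC3* at 63.8% moves down to -0.79.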

How the data were processed

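RNA was measured in 8 libraries. Files deposited by the authors hold raw counts of reads on each gene, made with HTSeq on GRCh38; the submitters' processing notes also name cutadapt and TopHat2 2.0.11. The annotation release and strand setting are not given in the sources used here, and the paper's FPKM values were not used. HTSeq's summary lines (16.1% to 31.0% of a library) were left out. Condition and line came from the labels; the WT4 libraries go by another name in their files. The 45 genes and the other lists were chosen with earlier results of these data known, and a further melanoma marker, beside the 9 described, is not reported here. Of 58051 Ensembl identifiers, 55604 had a symbol. Positions and promoters are from RefSeq (GRCh38.p14), and lengths, GC content and overlaps from GENCODE lifted to GRCh37, another build.

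The main test was edgeR 4.0.16 (R 4.3.3) with TMM scaling and robust glmQLFit and glmQLFTest on genes that passed filterByExpr. It compared serum-free with serum libraries and had no block. The Benjamini-Hochberg adjusted p had a threshold of 0.05. CPM (counts scaled to library size) and RPKM (CPM per kilobase of merged exons) use TMM-scaled library sizes, and log2 differences within a line a prior count of 2. SE is the log2 fold change divided by the square root of its F statistic. The line number pairs libraries of the same clone; deviations from condition means correlated at 0.40, 0.59, 0.46 and 0.60 within WT1 to WT4 and at most at 0.13 between lines.

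Values per library are given for the gene of each functional group with the smallest and the largest p, and for any gene called higher; those of *BRCA2*, *NBN* and *RAD50* were added after their values were seen. The genes whose call changes with the block are named, as are the 2 called genes with the smallest p of each other list. Promoters on chromosome 8 were left out. The E2F stretches were printed because they hold those letters. Alternatives were the replicate block, DESeq2 1.42.0, voom in limma 3.58.1, RLE and upper-quartile scaling, 3 other filters, a GC correction with the block, and each library or line left out; the block with each line left out and the canonical transcript length were chosen after seeing the data. The tests were checked on simulated data.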

Additional observations from a re-analysis of the deposited data

Results flagged for a closer look

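Of 90 sets of 4 CPM values (45 genes in 2 conditions), 6 held a library whose gap to its nearest neighbour, as a share of the range, was above Dixon's 95% critical value; chance gives about 4.5. The serum-free library of WT1 was high for *BRCA2* (63.2 CPM against 49.5 to 51.1 CPM, ratio 0.886) and *FANCG* (51.0 against 45.6 to 46.1 CPM, ratio 0.904). The serum library of WT4 was low for *RAD50* (54.7 against 71.6 to 73.8 CPM, ratio 0.887) and high for *MUS81* (58.5 against 46.0 to 46.8 CPM, ratio 0.929). In WT3, the serum library was high for *RAD54B* (7.12 against 4.82 to 5.03 CPM, ratio 0.908) and the serum-free library for *PMS2* (31.8 against 27.6 to 28.1 CPM, ratio 0.889). No cause was tested.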

How the results depend on the processing

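Over all genes, 2477 were called lower and 1957 higher; with the replicate block 3961 and 4106, with block and GC correction 4325 and 3828, and with a library or line left out 969 to 3279 and 620 to 2849. Calls lower were 55.9% of all calls, and 42.4% with upper-quartile scaling. Of the 45 genes, 28 were lower (12 to 30 with a library or line left out). The count was 33 with the block (31 to 32 with a line left out of it), 33 with DESeq2, 30 with voom and 22 with upper-quartile scaling. Of the 45 genes, 0 were higher (1 with the block, 1 with upper-quartile scaling, 4 with block and GC correction, 0 to 1 with a library or line left out). Their median log2 fold change of -0.37 became -0.30 with upper-quartile scaling, -0.28 with block and GC correction and -0.43 to -0.33 with a library or line left out. Of other repair genes, 25 were lower (41 with block and GC correction, 13 to 33 with a library or line left out) and 4 higher (9 with the block, 7 with upper-quartile scaling, 7 with at least 10 counts in every library, 7 with protein-coding genes only, 10 with block and GC correction, 1 to 8 with a library or line left out). The block changed no call of a named gene beyond those given above. Cell cycle markers called lower numbered 12 to 17 with a library or line left out.

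Signs turned for genes near 0. *WRN* was at -0.02 in voom, *FANCE* at 0.04 with upper-quartile scaling, and *MRE11* at 0.06 with upper-quartile scaling, 0.01 with at least 10 counts, 0.02 with protein-coding genes only and 0.17 with block and GC correction. With a library or line left out, *RAD51B* ran from -0.18 to 0.08, *WRN* from -0.09 to 0.09, *MRE11* from -0.06 to 0.04, *RAD50* from -0.04 to 0.09 and *FANCE* from -0.11 to 0.06. The median level with serum was 21.1 as TPM, 7.27 RPKM by the longest transcript and 9.67 RPKM by the canonical transcript, against 5.18 RPKM. In the 100 bases before the start, E2F letters were found in 3 of 40 genes (7.5%, against 2.27% of tested genes), those of the cell cycle homology region in 1 (2.5%, against 4.59%) and CCAAT in 18 (against 26.5% of tested genes). Causes were not tested.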
